A study of Mus musculus with 4 samples.

Results

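*S100a8*, *S100a9*, *Retnlg*, *Csf3r*, *Cxcr2*, *Il1b*, *Mmp8*, *Mmp9*, *Ngp* and *Camp* are genes by which neutrophils and their precursors are recognized in mouse tissue. They were taken by name from a list of 10 neutrophil genes, and all 10 were found among the 32285 genes counted here, with at least 1 molecule each. The tissue was pancreas from C57Bl/6 mice with acute pancreatitis, 2 labelled *Ehmt2+/+* and 2 labelled *Ehmt2fl/fl*, with 1 section from each mouse (wild type with *Pdx1-Cre*, and knockout with *Pdx1-Cre*, in the labels). Both genotypes carried *Pdx1-Cre*, which recombines in the pancreatic epithelium, so the floxed *Ehmt2* gene, which encodes a histone methyltransferase, was not targeted in neutrophils. All 4 mice were 4 weeks old, were fasted for 12 h and received caerulein, a cholecystokinin analogue that overstimulates acinar cells, at 50 µg/kg by intraperitoneal injection every hour for 8 injections, with tissue taken 18 h after the first. No section from a saline-treated mouse was analysed here, so the values below are all from injured pancreas.

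Neutrophils are made in the bone marrow and enter injured tissue from the blood. Chemokines of the CXCL family draw them through CXCR2, and G-CSF, acting on CSF3R, drives their production and release. Granule proteins such as NGP and CAMP are transcribed mainly in the marrow precursors, whereas mature cells carry much S100A8 and S100A9 message and switch on *Il1b* after activation. In caerulein pancreatitis they are among the first leukocytes to arrive, within hours of the acinar injury.

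Molecules were read with the CytAssist Visium probe assay, in which probe pairs hybridized to RNA in a formalin-fixed section are captured on barcoded spots and counted by unique molecular identifiers (UMIs), so that 1 UMI stands for 1 captured molecule. A spot is a small region that can hold several cells. The number of UMIs of a gene also depends on its probes, so levels were compared between sections and not ranked between members. The exception is a background that was set beside every gene, the 1107 olfactory receptor (*Olfr*) genes with a UMI, which are not known to be used in pancreas. In every list of 4 values below the sections stand in the order *Ehmt2+/+* replicate 1, *Ehmt2+/+* replicate 2, *Ehmt2fl/fl* replicate 1 and *Ehmt2fl/fl* replicate 2. Over tissue they held 43803829, 8697030, 7000825 and 8501140 UMIs.

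The sections differed in ways that touch each comparison below. *Ehmt2+/+* replicate 1 stood apart from the other three, with a median of 6285 UMIs per spot against 759 to 932. Digestive enzyme genes accounted for 65.8%, 53.5%, 22.3% and 21.4% of UMIs, while the *Olfr* median was 0.251, 5.52, 8.43 and 12.9 CPM, the UMIs of a gene per 1000000 UMIs over tissue of its section. *Ehmt2* itself had 865, 33, 73 and 101 UMIs, or 19.7, 3.79, 10.4 and 11.9 CPM, so by CPM it was lower in *Ehmt2+/+* replicate 2 than in both sections labelled *Ehmt2fl/fl*. This was 78.6, 0.69, 1.24 and 0.92 times the *Olfr* median. Outside *Ehmt2+/+* replicate 1 it was within the background, with 81.9%, 35.1% and 59.1% of the *Olfr* genes at or above it. Its log2 fold change in the edgeR test described below was -2.65 (SE 0.79, adjusted p = 0.226). Directions below therefore follow the labels only. The 4 Y-linked genes checked had 0 or 1 UMI in each section labelled *Ehmt2+/+* and 36 to 150 in those labelled *Ehmt2fl/fl*, so sex and genotype cannot be told apart. *Xist*, checked too, had 0 UMIs in all 4 sections and so gave no reading of sex. Each slide carried 1 section of each genotype, but the capture area on the slide was the same for all sections of a genotype, so area and genotype cannot be told apart either.

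The picture over the 10 genes was uneven. *Mmp9* stood clear of the *Olfr* background in all 4 sections and *Csf3r* in 3. *S100a8* and *S100a9* did so in both sections labelled *Ehmt2fl/fl* and in neither labelled *Ehmt2+/+*. *Cxcr2* and *Il1b* did so in 1 section, *Ehmt2fl/fl* replicate 1. *Retnlg*, *Mmp8*, *Ngp* and *Camp* did not in any section. A gene was taken to stand clear when its CPM exceeded the 95th percentile of the *Olfr* genes of its section, which was 0.571, 9.51, 17.1 and 21.9 CPM. By section, 2, 1, 6 and 4 of the 10 genes did. A gene can also read below the *Olfr* genes, as the Y-linked genes did in the sections labelled *Ehmt2+/+*, so this background is a range of readings and not a floor. In those labelled *Ehmt2fl/fl* the Y-linked genes stood at 0.600 to 1.78 times the *Olfr* median, under the 95th percentile. A gene within the range is thus not shown to be absent. Together the 10 genes had 244, 595, 1630 and 2156 UMIs, and *Mmp9* and *Csf3r* held 58.6%, 31.1%, 47.5% and 50.2% of them.

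**Figure D1:**
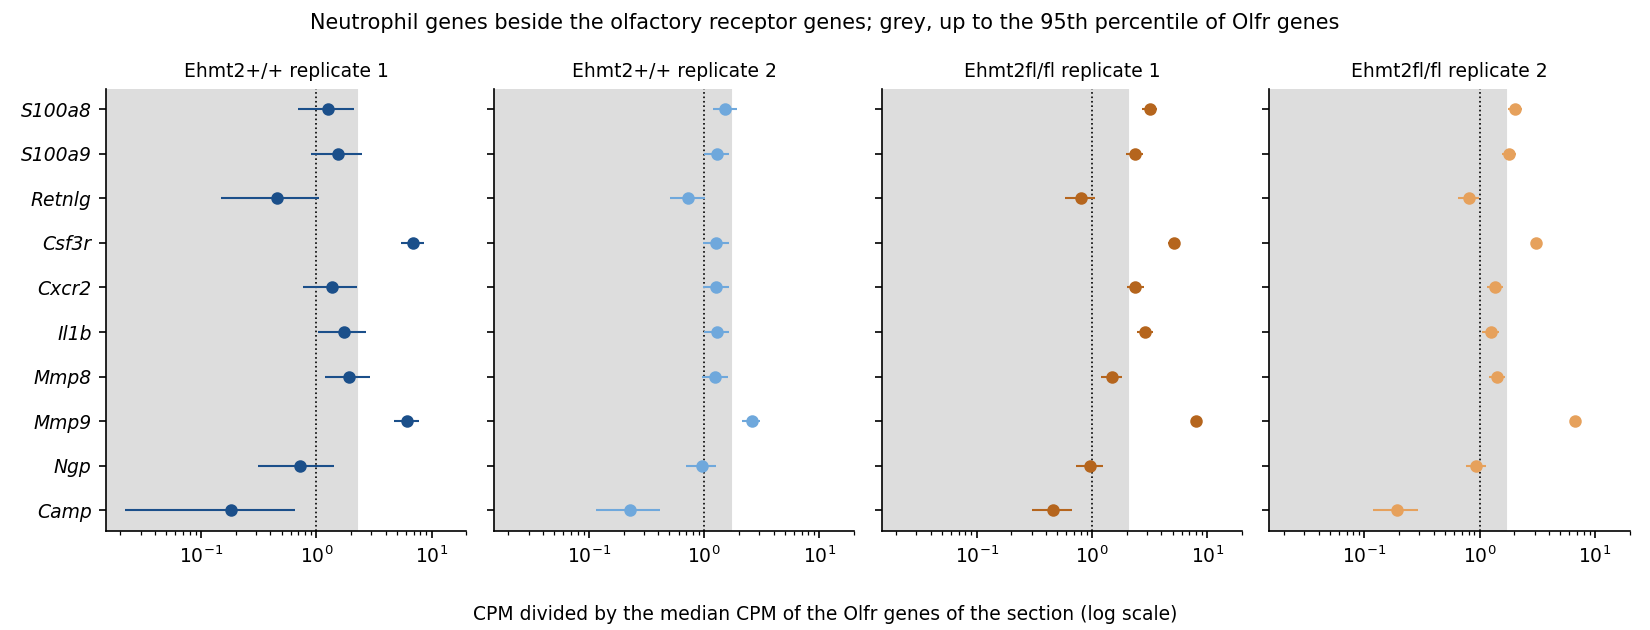
Level of the 10 neutrophil genes against the background in each section: CPM of the gene divided by the median CPM of the olfactory receptor genes of that section, on a log axis, with 1 panel per section. Bars are exact Poisson 95% intervals of the UMI count, the dotted line marks the olfactory receptor median and the grey area reaches to their 95th percentile. *Mmp9* lies between 2.58 and 7.98 in all 4 sections, whereas *Retnlg*, *Ngp* and *Camp* lie below 1 in each.

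*Mmp9* (chr2:164940780-164955850, plus strand, mm10) encodes gelatinase B, which neutrophils carry in granules and macrophages also make. It had 67, 124, 471 and 743 UMIs, or 1.53, 14.3, 67.3 and 87.4 CPM. These were 6.09, 2.58, 7.98 and 6.75 times the *Olfr* median of the section, and at most 0.361% of the *Olfr* genes reached its CPM in any section. A UMI of *Mmp9* was found in 1.07% (95% Clopper-Pearson interval 0.826 to 1.36), 1.20% (0.995 to 1.43), 5.80% (5.28 to 6.35) and 8.02% (7.45 to 8.62) of the spots over tissue, where an *Olfr* gene at the median of the share was found in 0.178%, 0.457%, 0.778% and 1.29%. By CPM, by the ratio to the *Olfr* median and by the share of spots, both sections labelled *Ehmt2fl/fl* lay above both labelled *Ehmt2+/+*. Such intervals cover counting error only, and in a section fewer cells of a type and less RNA per cell cannot be told apart.

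*Mmp8* (chr9:7558456-7568485, plus strand), the neutrophil collagenase, is a granule protease too. It had 21, 60, 88 and 156 UMIs and stood at 1.91, 1.25, 1.49 and 1.42 times the *Olfr* median. In every section between 11.5% and 28.1% of the *Olfr* genes reached its CPM, so its signal was within the range of the background throughout.

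The receptors divided in the same way. *Csf3r* (chr4:126024550-126044440, plus strand), the G-CSF receptor of granulocytes and monocytes, had 76, 61, 303 and 340 UMIs, or 1.74, 7.01, 43.3 and 40.0 CPM. Against the *Olfr* median this was 6.91, 1.27, 5.14 and 3.09. It was thus clear of the background in the deepest section and in both labelled *Ehmt2fl/fl*, whereas in *Ehmt2+/+* replicate 2 27.5% of the *Olfr* genes were at or above it. Its share of spots was 1.18% (0.927 to 1.48), 0.574% (0.437 to 0.739), 3.74% (3.33 to 4.2) and 3.88% (3.48 to 4.32). *Cxcr2* (chr1:74153989-74161246, plus strand), the chemokine receptor that guides neutrophils into tissue, had 15, 61, 140 and 149 UMIs, at 1.36, 1.27, 2.37 and 1.35 times the *Olfr* median. In *Ehmt2fl/fl* replicate 1 alone it was above the 95th percentile, and there 1.99% of the *Olfr* genes reached it, against 18.6% to 33.0% in the other sections.

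*S100a8* (chr3:90668978-90670035, plus strand) and *S100a9* (chr3:90692632-90695721, minus strand) lie 22596 bases apart and encode the subunits of calprotectin, an abundant cytosolic protein of neutrophils and monocytes. They had 14, 73, 187 and 222 and 17, 62, 139 and 197 UMIs. Relative to the *Olfr* median, *S100a8* stood at 1.27, 1.52, 3.17 and 2.02 and *S100a9* at 1.55, 1.29, 2.36 and 1.79. For *Ehmt2+/+*, 37.0% and 12.4% of the *Olfr* genes had at least the CPM of *S100a8* and 24.5% and 25.6% that of *S100a9*, so there the pair was inside the background. For *Ehmt2fl/fl* these shares were 0.181% and 1.08% for *S100a8* and 1.99% and 2.71% for *S100a9*.

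*Il1b* (chr2:129364570-129371139, minus strand), the inflammatory cytokine that activated neutrophils and macrophages release, had 19, 62, 171 and 137 UMIs. Its levels were 1.73, 1.29, 2.90 and 1.25 times the *Olfr* median. The sections labelled *Ehmt2fl/fl* bracketed both others on this scale, and at least 17.1% of the *Olfr* genes reached it everywhere but in *Ehmt2fl/fl* replicate 1, with 0.361%.

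The remaining secreted and granule genes read no higher than the middle of the background. *Ngp* (chr9:110419747-110423012, plus strand), the neutrophilic granule protein of precursors, had 8, 46, 57 and 103 UMIs and stood at 0.727, 0.958, 0.966 and 0.936 times the *Olfr* median. *Retnlg* (chr16:48872621-48874496, plus strand), a resistin-like protein of mature and maturing neutrophils, had 5, 35, 47 and 88 UMIs and stood at 0.455, 0.729, 0.797 and 0.800. *Camp* (chr9:109847379-109849617, minus strand), the cathelicidin of secondary granules, had 2, 11, 27 and 21 UMIs and stood at 0.182, 0.229, 0.458 and 0.191. All 12 of these ratios were below 1, so no signal above that of olfactory receptor genes was detectable for the 3 genes at this depth. *Mmp9* and *Csf3r* apart, no gene of the 10 was found in more than 0.340%, 0.681%, 2.43% and 2.58% of the spots over tissue.

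The next question was whether the 10 genes differed between the genotypes after caerulein. By CPM each of them was higher in both sections labelled *Ehmt2fl/fl* than in both labelled *Ehmt2+/+*, but so were 90.2% of the 20387 genes with a UMI and 93.6% of the *Olfr* genes. The same ordering held for all 10 by the share of spots, against 50.0% of all genes and 96.1% of the *Olfr* genes. Relative to the *Olfr* median of the section, the groups did not overlap for 4 genes, *S100a8*, *S100a9*, *Retnlg* and *Mmp9*, where 4.44% of all genes and 15.4% of the *Olfr* genes were ordered this way. *Retnlg* stayed below the *Olfr* median in all 4 sections, so its level was not above the background in any of them. In the two-sided exact permutation test over sections p was 0.333 for each gene by CPM and by share of spots, which is the smallest p that 2 against 2 sections allow.

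**Figure D2:**
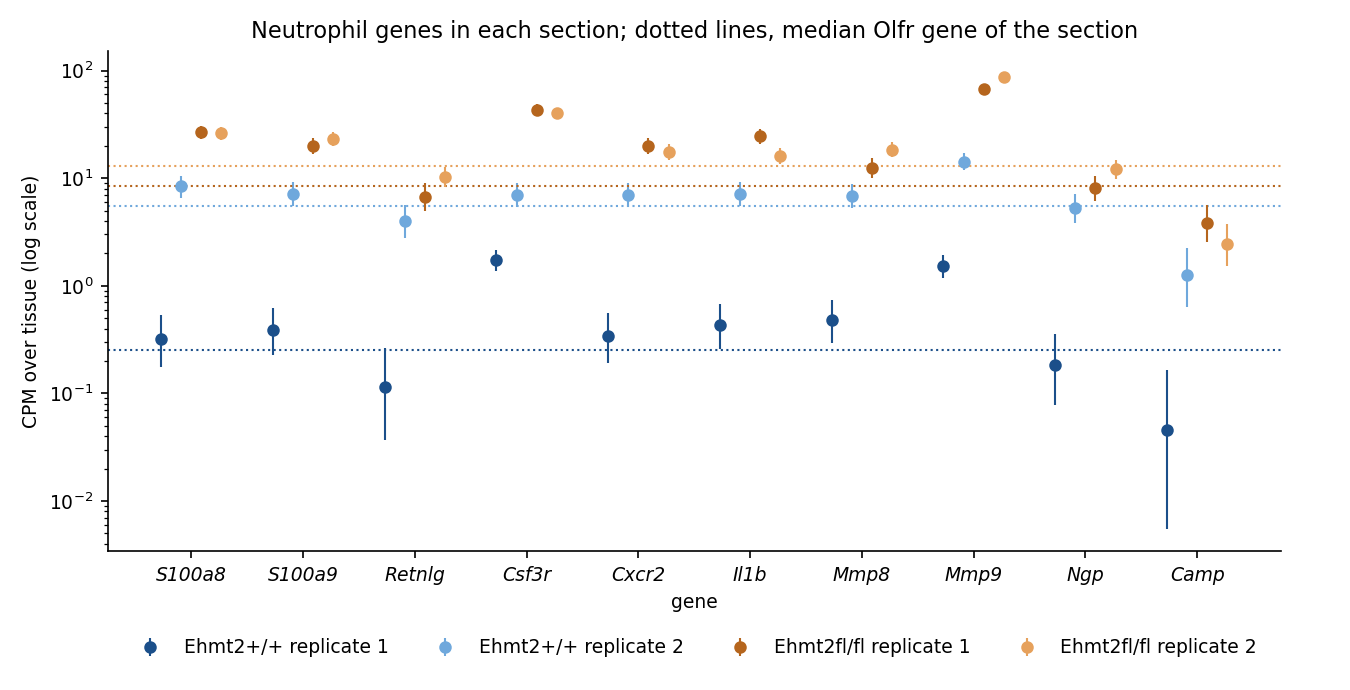
CPM of each of the 10 genes in the 4 sections, on a log axis, with bars for the exact Poisson 95% interval of the UMI count and a dotted line for the median of the olfactory receptor genes of each section. Every gene is higher in both sections labelled *Ehmt2fl/fl*, and the olfactory receptor median rises with them from 0.251 and 5.52 to 8.43 and 12.9 CPM.

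Because the sections differ in depth per spot, the share of spots was also computed after thinning each spot to 500 UMIs, which leaves out shallower spots and keeps 6144, 7871, 6483 and 6462. *Mmp9* was then expected in 0.119%, 0.772%, 3.45% and 4.4% of spots and *Csf3r* in 0.115%, 0.357%, 2.09% and 2.10%. The *Olfr* median was ordered in the same way, 0.0167%, 0.274%, 0.431% and 0.671%. All 10 genes kept the ordering by genotype after this thinning. Without thinning, 50.0% of all genes and 96.1% of the *Olfr* genes had this ordering by the share of spots. These background shares were not computed for either thinning. When digestive enzymes were set aside before thinning, which leaves 2101 spots of *Ehmt2+/+* replicate 2, 8 of 10 genes kept it, and *Retnlg* and *Ngp* did not. *Mmp9* then stood at 0.308%, 1.55%, 4.16% and 5.32% and *Csf3r* at 0.328%, 0.630%, 2.69% and 2.49%, beside an *Olfr* median of 0.0448%, 0.557%, 0.540% and 0.824%.

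The size of the difference depended on the slide. On slide 1, which carried replicate 1 of each genotype, the CPM of the 10 genes in the section labelled *Ehmt2fl/fl* was 24.9 to 84.5 times that in the section labelled *Ehmt2+/+*, and on slide 2 it was 1.95 to 6.13 times. Relative to the *Olfr* median, the ratios on slides 1 and 2 were 2.49 and 1.33 for *S100a8*, 1.52 and 1.39 for *S100a9*, 1.31 and 2.61 for *Mmp9* and 1.75 and 1.10 for *Retnlg*. For *Csf3r* they were 0.743 and 2.43, for *Mmp8* 0.781 and 1.13 and for *Il1b* 1.68 and 0.964, so the slides opposed each other for these genes. The slides also opposed each other for *Ngp*, at 1.33 and 0.977, and *Camp*, at 2.52 and 0.833, whereas *Cxcr2* had 1.74 and 1.07.

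In the fit across all genes (edgeR's quasi-likelihood test on the UMIs summed over each section, with Benjamini-Hochberg adjustment), none of the 10 genes was called. The fit called 19 of 20066 genes, or 0.0947%, and 2 of the 10 genes, *Mmp9* and *Csf3r*, had an unadjusted p under 0.05, as had 1005 of all genes. *Mmp9* had the highest log2 fold change of the 10, 2.04 (SE 0.81), with an adjusted p of 0.764 in edgeR. *Csf3r* followed with 1.75 (SE 0.69) and the same adjusted p. *S100a8* had 1.57 (SE 0.82) and *S100a9* 1.42 (SE 0.94), both with an adjusted p of 0.872. The other log2 fold changes were 1.35 for *Il1b* (SE 0.95), 1.29 for *Cxcr2* (SE 1.0) and *Camp* (SE 2.31), 1.01 for *Retnlg* (SE 1.43), 0.91 for *Mmp8* (SE 1.07) and 0.83 for *Ngp* (SE 1.3). Their median was 1.32, beside 0.25 over all tested genes and 0.80 over the *Olfr* genes. *Ngp*, *Mmp8* and *Retnlg* thus lay near the *Olfr* median, with 44.3%, 33.6% and 21.4% of the *Olfr* genes at or above them. For *Mmp9* and *Csf3r* the share was 0.0905% each, and for *S100a8* it was 0.633%.

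**Figure D3:**
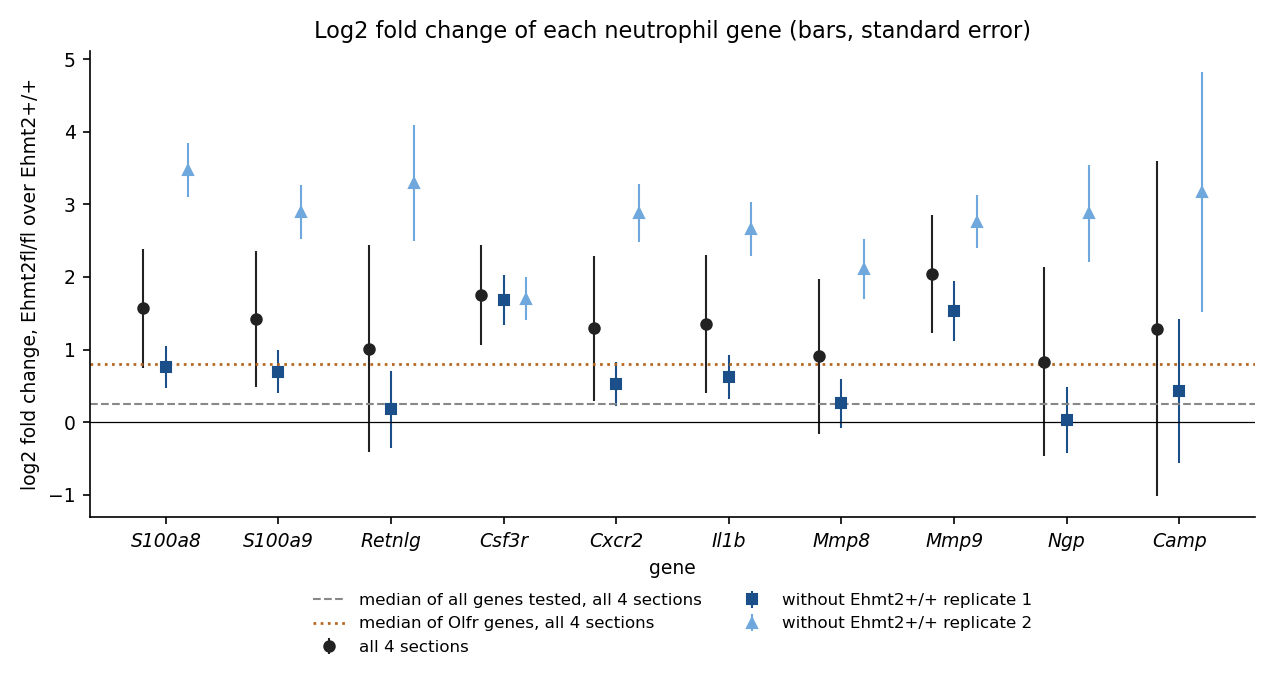
Log2 fold change of the 10 genes between sections labelled *Ehmt2fl/fl* and *Ehmt2+/+* from edgeR, with bars of 1 standard error, for all 4 sections and without each section labelled *Ehmt2+/+*. The horizontal lines are the medians over 4 sections of all tested genes, 0.25, and of the olfactory receptor genes, 0.80. The values of *Csf3r* lie close together, whereas those of *Ngp* and *Retnlg* run from near 0 without replicate 1 to 2.88 and 3.30 without replicate 2. The olfactory receptor median, not drawn for these fits, is 0.06 without replicate 1 and 2.47 without replicate 2.

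The log2 fold changes turned on the sections labelled *Ehmt2+/+*. Without replicate 1 of that label, *Csf3r* had 1.68 and *Mmp9* 1.53. The medians were then 0.04 over all genes, 0.06 over the *Olfr* genes and 0.57 over the 10 genes. Without replicate 2 these medians were 0.52, 2.47 and 2.88, and 100% of the *Olfr* genes had a positive log2 fold change. *Csf3r* then had 1.70, below the *Olfr* median, and *Mmp9* had 2.76. Without *Ehmt2fl/fl* replicate 1 the median was 1.08 over the 10 genes and 0.92 over the *Olfr* genes. Without *Ehmt2fl/fl* replicate 2 it was 1.60 and 0.66. With 1 section left in a group, that section is assumed to vary like the others, so only effect sizes are read for these omissions. The narrowest range over the 4 omissions was that of *Csf3r*, 1.52 to 1.96, followed by *Mmp9*, 1.53 to 2.76. *Ngp* ran from 0.03 to 2.88 and *Retnlg* from 0.18 to 3.30. The *Olfr* median itself moved from 0.06 without *Ehmt2+/+* replicate 1 to 2.47 without replicate 2 of that label. After subtracting the *Olfr* median of each fit, *Csf3r* ran from -0.76 to 1.62 and *Mmp9* from 0.30 to 1.47.

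Markers of other leukocytes also had more UMIs per 1000000 in the sections labelled *Ehmt2fl/fl*, but none of them was called. By CPM, 90.2% of all genes and 93.6% of the *Olfr* genes were higher in both of these sections than in both others. The 9 macrophage markers summed to 73.0, 141, 797 and 680 CPM and the 4 monocyte markers to 69.9, 106, 1010 and 736 CPM, with none of them at 0 in any section, and edgeR called 0 of either list, with 0 and 1 at an unadjusted p under 0.05. All 9 and all 4 had a positive log2 fold change (medians 1.01 and 1.23), as had 56.2% of all tested genes and 99% of the *Olfr* genes (median 0.80). Of these, 6 of the macrophage markers and 3 of the monocyte markers stood above the 95th percentile of the *Olfr* genes in all 4 sections. Relative to the *Olfr* median of the section, every macrophage and monocyte marker was highest in *Ehmt2+/+* replicate 1. The lymphoid markers, of B and T cells, summed to 11.9, 134, 292 and 311 CPM, and the 12 tested had a median of 0.81, and edgeR called 0 of them, with 1 at an unadjusted p under 0.05. Spots with at least 2 lymphoid UMIs made up 0.485%, 0.992%, 3.47% and 4.83% of the spots over tissue and held 0.820%, 3.03%, 6.01% and 7.37% of the UMIs of the 10 genes, beside 0.675%, 1.41%, 4.27% and 6.94% of all UMIs. Without those spots the share of spots remained higher in both sections labelled *Ehmt2fl/fl* for all 10 genes. With them it was higher for 50.0% of all genes and 96.1% of the *Olfr* genes, and without them this was not computed. The part of macrophages and monocytes in the levels of *Mmp9*, *Csf3r*, *Il1b*, *S100a8* and *S100a9*, which they also express, was not tested.

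Genes of the same lineage outside the 10 gave a similar mixture. Of 9 granulocyte precursor genes, edgeR called 0, with 0 at an unadjusted p under 0.05. All had a positive log2 fold change with a median of 0.89. So had 99% of the *Olfr* genes (median 0.80) and 56.2% of all tested genes (median 0.25). Of the 9, 2, *Lcn2* and *Prtn3*, were above the 95th percentile of the *Olfr* genes in all sections, while 5 were in none. *Lcn2*, the siderophore-binding lipocalin that injured epithelium also makes, had 745, 266, 1763 and 2096 UMIs (log2 fold change 1.54). *Elane*, neutrophil elastase, had 20, 77, 133 and 191 (1.07), and the lowest changes were those of *Fcnb*, ficolin B, with 17, 72, 97 and 156 (0.81), and *Mpo*, myeloperoxidase, with 10, 47, 51 and 86 (0.55). *Mpo* was at 0.782 to 0.979 times the *Olfr* median, as *Ngp* was near 1.

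Of the 26 mature neutrophil genes, 25 were tested, and edgeR called 0, with 0 at an unadjusted p under 0.05. A positive log2 fold change was found for 23 and the median was 1.10, beside 99% of the *Olfr* genes with a median of 0.80. *Slpi*, a protease inhibitor of granulocytes and epithelia, had 503, 634, 2707 and 3192 UMIs (1.84, SE 1.07), and *Il1r2*, the decoy receptor for interleukin-1, had 0, 3, 12 and 12 (2.33, SE 3.87). The lowest were *Lrg1*, a glycoprotein of granules and of the acute-phase response, with 1923, 463, 438 and 410 UMIs (-1.81, SE 0.98), and *G0s2*, a lipase inhibitor, with 141, 159, 173 and 234 (-0.10). *Ly6g*, the usual surface marker of mouse neutrophils and named here after its values were seen, had 26, 72, 138 and 147 UMIs, at 2.36, 1.5, 2.34 and 1.34 times the *Olfr* median. Of the 26 genes, 10 were above the 95th percentile of the *Olfr* genes in all 4 sections and 7 in none. The 10 include *Slpi*, *Lrg1* and *G0s2*, and the 7 include *Il1r2*. The part of cells other than neutrophils in these levels was not tested.

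Of 24 genes listed for neutrophil recruitment, 22 were tested, and edgeR called 0, with 2 at an unadjusted p under 0.05. A positive log2 fold change was found for 21, and the median was 0.88, beside 99% of the *Olfr* genes with a median of 0.80. The 2 genes under 0.05 were *Cxcl2*, with 32, 90, 300 and 373 UMIs (1.84, SE 0.69), and *Cxcl5*, with 76, 129, 553 and 423 (1.74, SE 0.78). These ligands of CXCR2, named after their values were seen, were above the 95th percentile of the *Olfr* genes in all 4 sections. *Cxcl1*, another ligand, was so in 1. Of the 24 genes, 10 were above it in all 4 sections and 6 in none. *Cxcl3*, a ligand of CXCR2, had no UMI in either section labelled *Ehmt2+/+* and 15 and 16 in those labelled *Ehmt2fl/fl*. By mean CPM it was 9.73-fold higher when 3 counts are allowed in each section at 0. That ratio leaves out the TMM factors that the log2 fold changes use, so it is no lower bound for them. In the sections labelled *Ehmt2fl/fl*, *Cxcl3* was at 0.254 and 0.145 times the *Olfr* median, with 98.9% and 99.9% of the *Olfr* genes at or above it. The *Olfr* median CPM was itself higher there. With *Cxcl3* at 9.73-fold the median of the list was the same. *Il1rn*, the interleukin-1 receptor antagonist and so an inhibitor within this list, had 1806, 617, 7822 and 6960 UMIs (2.27, SE 1.21). The lowest were *Icam1*, the endothelial adhesion molecule, with 58, 11, 47 and 31 (-0.08), and *Il1rap*, the accessory chain of the interleukin-1 receptor, with 159, 93, 163 and 214 (0.12).

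**Figure D4:**
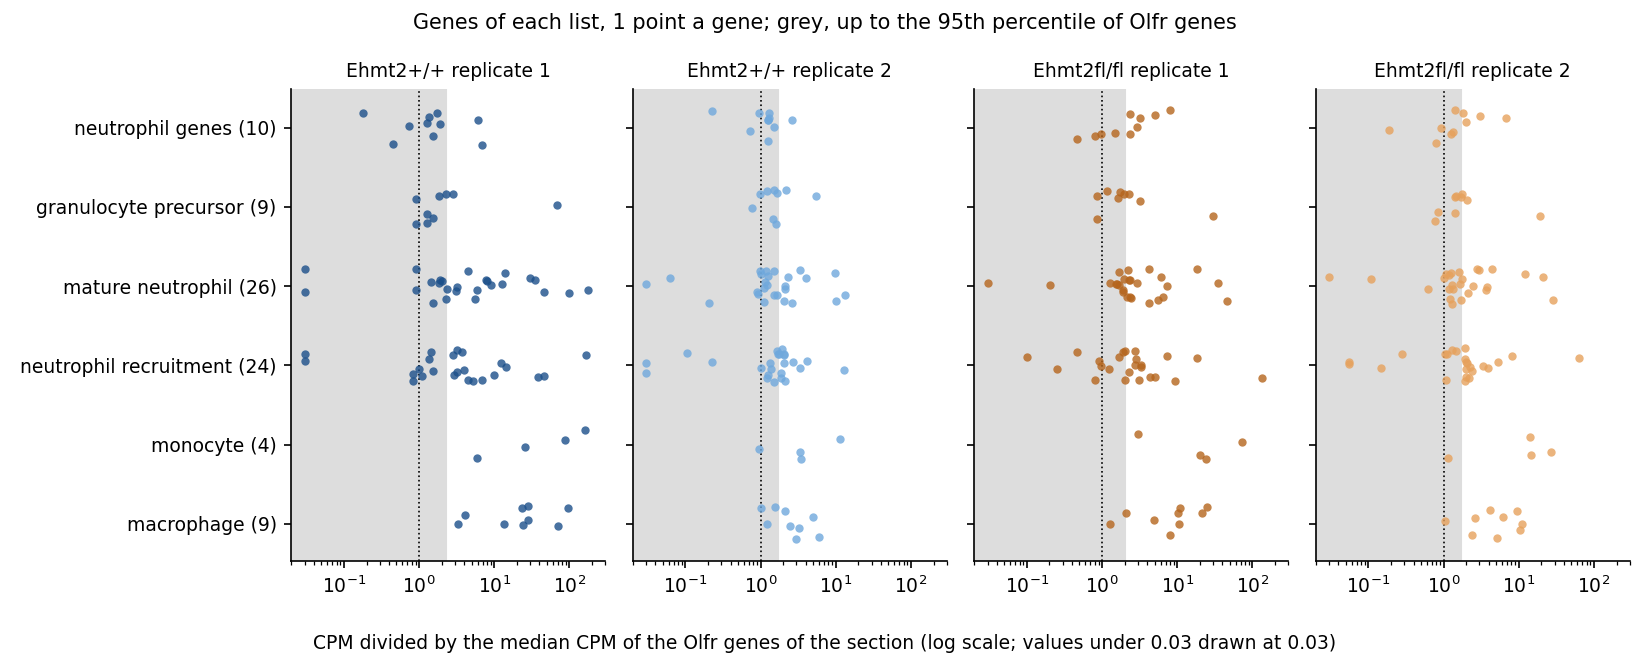
Genes of the neutrophil, precursor, recruitment, macrophage and monocyte lists in each section: CPM divided by the median CPM of the olfactory receptor genes of that section, on a log axis, with 1 point per gene and the grey area up to the 95th percentile of the olfactory receptor genes. Most precursor genes lie within the grey area or at its edge, the mature neutrophil genes spread from within it to far beyond it, with 10 of 26 beyond it in every section, and most macrophage and monocyte markers lie to the right of the grey area.

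A neutrophil that expresses several of these genes would place them in the same spot, and so the spots with at least 500 UMIs were examined for co-occurrence. There were 6144, 7871, 6483 and 6462 such spots, of which 3.79%, 6.11%, 19.9% and 25.2% held a UMI of at least 1 of the 10 genes. Over all spots over tissue, a gene found in a spot was nearly always there as a single UMI, in 98.3%, 98.6%, 95.9% and 96.1% of the cases. Among the spots with at least 500 UMIs, at least 2 of the 10 genes met in 7, 18, 151 and 228. If the UMIs of each gene had been spread over the spots in proportion to their depth, 5.62, 16.2, 138 and 230 spots would have held as many. At least 3 genes met in 0, 1, 8 and 23 spots, with 0.0925, 0.380, 8.84 and 23.2 expected.

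Summed over the 45 pairs of genes, shared spots numbered 7, 20, 170 and 280. The ratio of this number to the expected number was 1.21 (95% interval from the Poisson count 0.484 to 2.48), 1.18 (0.720 to 1.82), 1.09 (0.929 to 1.26) and 0.989 (0.876 to 1.11). The interval included 1 in each section. With the product of the shares of spots as the expected number, which takes no account of spot depth, the ratio was 1.24 (1.06 to 1.44) and 1.23 (1.09 to 1.39) in the sections labelled *Ehmt2fl/fl*, where pairs with an *Olfr* gene had 1.16 in both. With expected numbers by depth, pairs of 1 of the 10 genes with an *Olfr* gene gave ratios of 0.756, 1.29, 1.03 and 0.924. Pairs that share a gene share its spots, so the intervals are narrower than the pairs warrant.

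**Figure D5:**
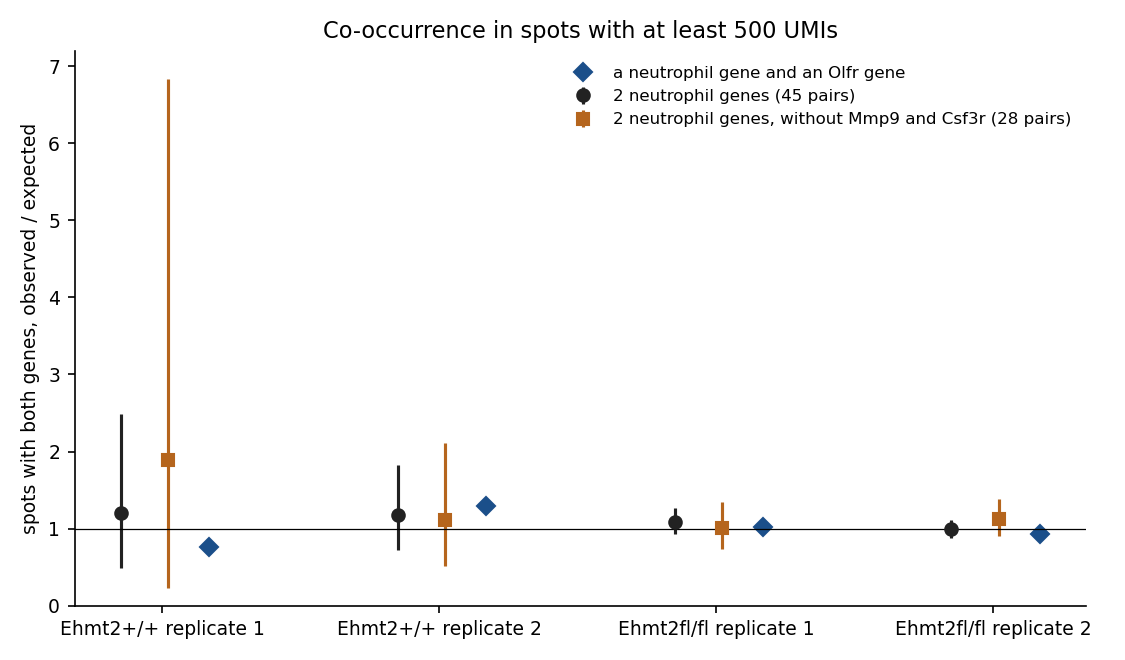
Observed over expected number of spots shared by pairs of the 10 genes in each section, with 95% intervals from the Poisson count, with and without the pairs that hold *Mmp9* or *Csf3r*, beside the ratio for pairs of 1 of the 10 genes with an olfactory receptor gene. A value of 1 is the number given by spot depth alone. The ratios over 45 pairs lie between 0.989 and 1.21, those without *Mmp9* and *Csf3r* between 1.0 and 1.89, and each interval includes 1.

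Single pairs had few shared spots. *S100a8* and *S100a9* met in 0, 0, 9 and 5 spots, where 0.0586, 0.514, 3.83 and 6.48 were expected. In *Ehmt2fl/fl* replicate 1 their ratio was 2.35 (1.08 to 4.46), which was the only interval above 1 among the 180 pairs and sections, and in replicate 2 it was 0.772 (0.251 to 1.80). *Csf3r* and *Mmp9* met in 3, 0, 23 and 38 spots, with 1.23, 0.747, 19.0 and 36.5 expected. *S100a8* and *Mmp8* met in 15 spots over all sections against 8.24 expected, a ratio of 1.82 (1.02 to 3.0). *S100a9* and *Csf3r* met in 11 against 17.1, a ratio of 0.644 (0.322 to 1.15). In *Ehmt2fl/fl* replicate 2 *S100a9* and *Csf3r* met in 4 against 10.3, and there the interval lay below 1, at 0.389 (0.106 to 0.997). *Ngp* and *Camp*, both granule genes of precursors, met in none, with 0.619 expected. The most of the 10 genes in any spot was 4, with *S100a8*, *Retnlg*, *Csf3r* and *Mmp8* in *Ehmt2fl/fl* replicate 1 and, in replicate 2, *Il1b*, *Mmp8*, *Mmp9* and *Ngp* in 1 spot and *S100a8*, *Csf3r*, *Cxcr2* and *Il1b* in another.

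Macrophage and monocyte markers took a somewhat larger share of the UMIs in spots with 1 of the 10 genes. The macrophage share was 1.17, 1.26, 1.19 and 1.20 times that over all spots with at least 500 UMIs, where spots with an *Olfr* gene gave 0.949, 1.35, 1.07 and 1.04. For monocyte markers the ratios were 1.03, 1.21, 1.21 and 1.20, with 0.958, 1.24, 1.07 and 1.03 around *Olfr* genes. The 10 genes were thus above the pooled *Olfr* genes in 3 of 4 sections on both lists and below them in *Ehmt2+/+* replicate 2. For single *Olfr* genes the 5th to 95th percentile of the macrophage ratio was 0.375 to 1.76, 0.499 to 2.32, 0.794 to 1.38 and 0.830 to 1.28. The macrophage ratio of the 10 genes lay inside this range in each section, as the monocyte ratio lay inside its own. The range is of single genes and the ratio pools 10, so its place inside the range cannot tell it from the background. A range for pooled sets of 10 *Olfr* genes was not computed. The mature neutrophil list gave 1.11, 1.49, 1.16 and 1.06 against 0.961, 1.42, 1.12 and 1.04. Lymphoid markers were at 1.07, 1.72, 1.37 and 1.12 around the 10 genes and at 1.01, 1.84, 1.5 and 1.15 around *Olfr* genes, and digestive enzymes at 0.995, 0.902, 0.873 and 0.930 against 1.0, 0.895, 0.869 and 0.923, with little between them.

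Around *Mmp9* alone the macrophage ratio was 1.24, 1.29, 1.27 and 1.32, and around *Csf3r* it was 1.05, 1.17, 1.23 and 1.33. These are descriptions within a section, since its spots are not replicates. Of the *Olfr* genes, 21.5%, 50.9%, 14.6% and 3.25% gave at least the ratio of *Mmp9* and 35.1%, 59.8%, 19.0% and 2.98% that of *Csf3r*. In *Ehmt2+/+* replicate 2 both genes were thus below the typical *Olfr* gene.

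The genes whose level over spots was most like the sum of the 10 were *Ccl6*, *Cfp*, *Actr3*, *Ccl9*, *Plac8*, *Pf4*, *Actb*, *Mrc1*, *Fn1* and *Maf*. Likeness was the Pearson correlation over spots with at least 500 UMIs of the natural log of 1 plus UMIs per 10000, averaged over the 4 sections. It was weak for each of them. *Ccl6*, a myeloid chemokine, reached 0.0649 and *Maf* 0.0404, where the median of 14240 genes was 0.00414 and the highest of 155 *Olfr* genes was 0.0402. *Plac8* and *Mrc1* are among the monocyte and macrophage markers used above.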

How the data were processed

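The deposited UMI counts, made by the authors with Space Ranger 2.0.1 per the file headers on mm10 with the mouse probe set, are whole numbers per gene and spot, unnormalized, with no replicate pooled. Of 32589 features, 304 deprecated ones were left out. The alignment files' tissue marks carry no barcodes and could not be joined, so spots over tissue were those above the lowest point of the histogram of log10(UMIs + 1), in bins of 0.05 smoothed with an SD of 3 bins, which gave 6183, 10285, 7587 and 8443 spots. A barcode marks a slide position, and 13898 were shared by all sections.

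UMIs summed per section (n = 2 per genotype, 1 mouse each) were tested with edgeR 4.0.16 in R 4.3.3 (TMM, filterByExpr with a minimum count of 10, threshold 0.05), whose common dispersion was 0.362. The script was checked on simulated data. Shares have Clopper-Pearson intervals, and UMI counts and shared spots have exact Poisson intervals, all at 95%. Exact tests used the 6 splits of sections. The rest was done in Python 3.11.15 (matplotlib 3.10.9, scipy 1.17.1, pandas 2.3.3, numpy 2.4.6). A count of 0 was taken to allow 3. Gene positions are from GENCODE vM21, matched by identifier.

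The 10 genes, the marker lists and the tests were chosen with earlier results of these data known. Besides the 10 genes, the text names those with the 2 highest and 2 lowest log2 fold changes of each other neutrophil list, any that was called, and the 10 most alike over spots. *Prtn3*, *Ly6g*, *Cxcl1*, *Cxcl2* and *Cxcl5* were named outside this rule. Alternatives were DESeq2 1.42.0, library sizes without TMM, upper-quartile normalization, other filters and spots, thinning to 500 UMIs, other expected counts of shared spots and leaving out each section. The slide as a block, scaling to the *Olfr* median and the pairs without *Mmp9* or *Csf3r* were chosen after seeing the data.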

Additional observations from a re-analysis of the deposited data

Results flagged for a closer look

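Spots below the limit for tissue, which the comparisons over tissue left out, also held UMIs of the 10 genes. There were 8006, 4051, 6421 and 5893 such spots, with 6, 17, 47 and 34 UMIs of the 10 genes, above the 3 that a count of 0 allows. Summed over the 10 genes, this was 11.9, 98.0, 343 and 280 CPM of the UMIs off tissue. Over tissue the sum was 5.57, 68.4, 233 and 254 CPM. The median for a single *Olfr* gene off tissue was 0, 5.77, 7.30 and 16.5 CPM, which is not comparable with a sum over 10 genes. The source of the UMIs of the 10 genes off tissue was not tested.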

How the results depend on the processing

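The log2 fold changes of all 10 genes were positive under every alternative, but so were those of 59.2% to 100% of the *Olfr* genes. Measured from the *Olfr* median of the fit, some were below 0. Without *Ehmt2+/+* replicate 2 these were *Csf3r* at -0.76 and *Mmp8* at -0.36, and the other genes lay above it. Without *Ehmt2fl/fl* replicate 1 they were *Il1b* at -0.10 and *Camp* at -0.19, and with the slide as a block *Mmp8* at -0.06. *Ngp* was at -0.03 without *Ehmt2+/+* replicate 1, -0.02 with every spot that had a UMI and -0.01 without TMM factors. Of 20066 genes, 195 (0.972%) were called without TMM factors, 3 (0.015%) with upper-quartile normalization and 10 (0.0498%) with the slide as a block. None of the 10 neutrophil genes was among them. DESeq2 called 401 of the 2171 genes to which it gave an adjusted p (18.5%), and it gave no adjusted p for any of the 10 genes. Of the calls, 11 were higher and 8 lower in the sections labelled *Ehmt2fl/fl*, against 188 and 7 without TMM factors, 3 and 0 with upper-quartile normalization, 7 and 394 with DESeq2 and 10 and 0 with the block. The number of genes called ran from 0 to 16701 over the omissions of 1 section, and the number of the 10 genes called from 0 to 9. Both upper ends are from the fit without *Ehmt2+/+* replicate 2, in which 20122 genes were tested. In that fit 100% of the *Olfr* genes had a positive log2 fold change. With 1 section left in a group, no difference in the 10 genes is read from these counts. The 0 is without *Ehmt2fl/fl* replicate 2, with 17 genes at an unadjusted p under 0.05 in edgeR. Without TMM factors the medians over all genes, *Olfr* genes and the 10 genes were 1.64, 1.92 and 2.40, and with the slide as a block 0.35, 1.26 and 1.68. Scaled to the *Olfr* median, 4 of the 10 genes were higher in both sections labelled *Ehmt2fl/fl*, as were 4.44% of all genes and 15.4% of the *Olfr* genes. The ratio for co-occurrence in *Ehmt2fl/fl* replicate 2 was 1.23 with expected counts from the product of shares (interval 1.09 to 1.39, against 1.16 for pairs with an *Olfr* gene) and 1.12 without pairs that hold *Mmp9* or *Csf3r*. No paired analysis by replicate number was possible because the labels carry none and the numbers follow accession order, so the block on slides is the fit that pairs the sections. With 1 UMI in most positive spots, depth limits what co-occurrence can show, and every comparison rests on 2 mice per genotype.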
